A study of Danio rerio with 18 samples.

Results

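The comparison described here sets 3 RNA-seq libraries of regenerating retinal pigment epithelium (RPE) taken 4 days post-injury (dpi) against 3 taken at 2 dpi, which are 6 of the 18 libraries of a zebrafish study. All 6 came from larvae whose RPE had been ablated, labelled MTZ+, and they were chosen by label and time alone. Ablation used 10 mM metronidazole for 24 h between 5 and 6 days post fertilisation (dpf), and up to 1000 cells positive for enhanced green fluorescent protein (eGFP) were sorted from dissociated eyes for each library. The same fit also held 3 unablated (MTZ-) libraries at 4 dpi and 3 at 2 dpi, which show what the same 2 days did to larvae not given the drug, and 6 libraries of 7 dpi. All larvae, with and without the drug, were kept in 1.5X phenylthiourea, which stops pigmentation, from 0.25 to 5 dpf.

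The labels name neither the transgene nor the strain. In the published line, eGFP is fused to a bacterial nitroreductase under regulatory sequence of rpe65a, so that metronidazole becomes toxic in cells that use this gene. A sort on eGFP therefore selects cells that express the transgene, and cells of the regenerating layer without it are meant to be left out. Purity of the sort was not tested, and some libraries held transcripts of other cell types. No group received the drug without the transgene, and effects of metronidazole and of cell loss cannot be told apart. The libraries are bulk samples, so fewer cells of a type and less RNA per cell cannot be told apart either. Nothing in the labels states that replicates came from separate clutches, and p-values measure only the spread between these libraries.

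The RPE is a pigmented epithelium behind the photoreceptors that regenerates visual chromophore, engulfs shed outer segments and forms part of the blood-retina barrier. Mammalian RPE repairs itself poorly, whereas larval zebrafish can rebuild the layer after ablation from cells at its edge that divide and move inward. Growing and dividing cells make new ribosomes in the nucleolus, where RNA polymerase I copies ribosomal RNA and a large set of assembly factors trims, modifies and packs it. Levels below are counts scaled to a common library size (CPM) and made comparable between libraries, fold changes are log2 of 4 dpi over 2 dpi with a standard error (SE), and a gene was called when its adjusted p in edgeR's quasi-likelihood test was under 0.05 over all genes.

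Total counts were 30666247 to 60377642 in ablated 4 dpi libraries and 28885808 to 35152187 in ablated 2 dpi libraries. Log2 levels correlated across genes at r = 0.896 to 0.943 within 4 dpi, 0.891 to 0.941 within 2 dpi and 0.848 to 0.922 between the times. The sorted cells carried RPE markers in all 6 libraries. By TPM, which corrects for length, the visual cycle isomerase gene rpe65a ranked 5 to 25 among all genes, the pigment enzyme gene tyrp1b 1 to 20 and the retinaldehyde-binding protein gene rlbp1b 7 to 34. Markers of other cells varied. The endothelial gene kdrl stood at 0.646 TPM or less and the muscle gene tpma at 0.592 TPM or less. The rod gene rho had 5.75, 2348 and 467 TPM in ablated 4 dpi libraries, against 7.42, 2.38 and 1.60 TPM at 2 dpi. The macrophage gene mpeg1.1 reached 18 TPM in ablated 4 dpi replicate 2, and the Mueller glia marker glula 3658 TPM in ablated 4 dpi replicate 1. Ablated 2 dpi replicates 2 and 3 needed scaling factors of 0.781 and 0.692, whereas the other 4 ablated libraries had 1.14 to 1.23. Mitochondrially encoded genes took 5.16% ± 1.57 of counts at 4 dpi and 7.94% ± 3.15 at 2 dpi (SD, n = 3 each, exact two-sided permutation p = 0.3, where the smallest possible is 0.1).

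Across the genome, 205 genes were higher and 659 were lower in ablated RPE at 4 dpi than at 2 dpi. These are 1.02% and 3.28% of 20093 tested genes, 4.3% together, and their median log2 fold changes were 2.49 and -2.39, while the median of all tested genes was 0.13. All 3 libraries of one time lay beyond all 3 of the other for 5107 genes, 25.4% of those tested. The called falls included many genes of ribosome assembly, mitochondrial translation, respiration, splicing and protein degradation. The called rises held retinal, circadian and glucocorticoid-related genes and several genes of transport and signalling.

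In unablated larvae 163 genes were higher (0.811%) and 555 lower (2.76%) over the same 2 days. Of the genes lower in ablated RPE, 313 were also lower in unablated RPE, which is 47.5% of the ablated and 56.4% of the unablated list. Of those higher, 36 were shared, 17.6% of the ablated and 22.1% of the unablated list, and no gene was called in opposite directions. The sequencing name of unablated 4 dpi replicate 1 calls it positive, which the submitters describe as a naming error, and without that library 2 genes were called in unablated RPE. No other unablated library was left out singly, so whether this drop is particular to that library was not tested. The unablated fold change had the same sign for 855 of the 864 genes. Its median was -1.95 for the genes that fell in ablated RPE and 1.46 for those that rose. The 2 comparisons use different libraries, but ablated and unablated libraries of a time and number were not independent of each other.

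**Figure D1:**
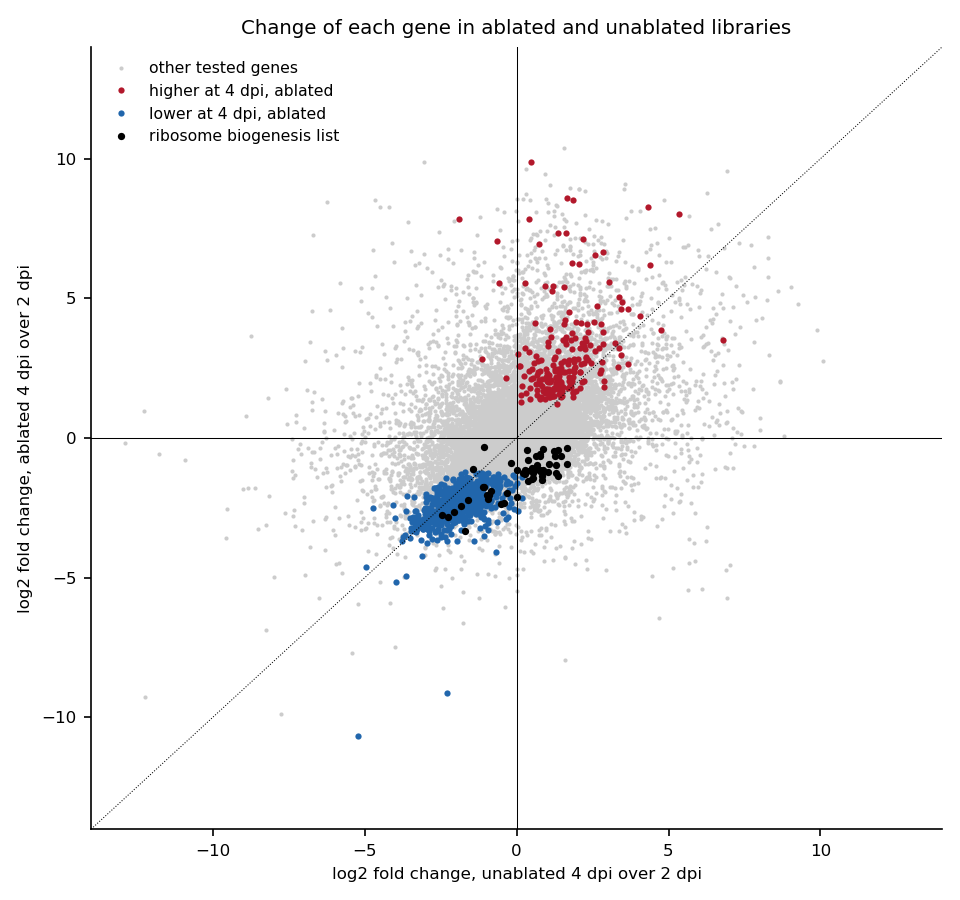
Log2 fold change of each tested gene between 4 and 2 dpi, in ablated libraries on the y axis and in unablated libraries on the x axis. Red and blue points are the 205 genes called higher and the 659 called lower in ablated libraries, black points are the 54 ribosome biogenesis genes and the dotted line marks equal change. Most coloured points lie in the quadrants of equal sign, while many black points lie below 0 on the y axis and above 0 on the x axis.

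The number of calls depended on single libraries. Without ablated 4 dpi replicate 1 there were 55 calls, without ablated 4 dpi replicate 2, ablated 4 dpi replicate 3, ablated 2 dpi replicate 2 or ablated 2 dpi replicate 3 there were 0, and without ablated 2 dpi replicate 1 there were 1343. In the 4 fits without a call the lowest adjusted p was 0.0651 to 0.0899, and between 2653 and 2772 genes had an unadjusted p under 0.05, against 3561 with all libraries. All 864 genes kept their sign in each of these 6 fits. DESeq2 called 2204 genes and limma-voom 594. A fit on log2(TPM + 1) called 400 higher and 148 lower, with the median of all genes at 0.435, so the excess of falls over rises holds for scaled counts and not for TPM. These limits apply to every called gene named below.

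Genes of ribosome assembly stood far lower in regenerating RPE at 4 dpi than at 2 dpi. The 54 tested genes of the ribosome biogenesis list summed to 2730, 2488 and 2515 CPM in ablated 4 dpi libraries, against 8967, 7721 and 8427 CPM in ablated 2 dpi libraries. The 3 libraries of each time lay close together and the times were well apart. Unablated RPE summed to 1405, 1745 and 1819 CPM at 4 dpi, against 1230, 1720 and 2257 CPM at 2 dpi, and these ranges overlapped. Of the 54 members 13 fell (24.1%, against 3.28% of all tested genes) and 0 rose. All 54 had a negative fold change, with a median of -1.21. In unablated RPE 1 member fell and 1 rose, with a median of 0.45, where 2.76% of all tested genes fell and 0.811% rose.

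npm1a, which encodes the abundant nucleolar chaperone nucleophosmin (ENSDARG00000014329, chromosome 10, 22064600 to 22075667), stood at 473, 296 and 311 CPM in ablated 4 dpi libraries, against 2321, 1628 and 1446 CPM in ablated 2 dpi libraries (log2 fold change -2.32, SE 0.60, adjusted p = 0.038). All 3 of its 4 dpi values lay below all 2 dpi values, and in unablated RPE it stood at 78.4 to 97.8 CPM at 4 dpi, against 89.5 to 146 CPM at 2 dpi. fbl, the rRNA methyltransferase fibrillarin (ENSDARG00000053912, chromosome 16, 42227627 to 42236061), had 164, 131 and 149.6 CPM at 4 dpi, against 530.3, 629 and 478 CPM at 2 dpi (log2 fold change -1.88, SE 0.46, adjusted p = 0.029). nop2, a methyltransferase of large-subunit rRNA, had 61.2, 51.2 and 45.8 CPM at 4 dpi, against 252, 204 and 362 CPM at 2 dpi (log2 fold change -2.37, SE 0.57, adjusted p = 0.028). Neither gene overlapped between the times. nop10, a protein of the snoRNA particles that guide pseudouridylation, had 40.5, 48.6 and 50.2 CPM at 4 dpi, against 107, 422 and 886 CPM at 2 dpi (log2 fold change -3.34, SE 0.81, adjusted p = 0.029). npm1a, fbl, nop2 and nop10 were named after their values were seen.

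Among the members with the lowest adjusted p were nhp2, of the same particles as nop10, and imp4, of the U3 particle that processes the small-subunit precursor. nhp2 had 72.6, 54.2 and 54.5 CPM at 4 dpi, against 191, 534 and 572 CPM at 2 dpi (log2 fold change -2.84, SE 0.52, adjusted p = 0.018), and imp4 had 41.3, 33.6 and 26.5 CPM at 4 dpi, against 133, 189 and 153 CPM at 2 dpi (log2 fold change -2.23, SE 0.50, adjusted p = 0.022). ebna1bp2, an assembly factor of the large subunit, had 49.9, 31.6 and 38.9 CPM at 4 dpi, against 117, 299.8 and 329 CPM at 2 dpi (log2 fold change -2.63, SE 0.59, adjusted p = 0.022). nip7, another large-subunit factor and among the 15 largest falls of all genes, had 26.8, 21.2 and 19.2 CPM at 4 dpi, against 64.5, 303 and 489 CPM at 2 dpi (log2 fold change -3.67, SE 0.80, adjusted p = 0.02). Replicate 1 was the lowest of the 2 dpi libraries for nhp2, imp4, ebna1bp2 and nip7, and still lay above every 4 dpi library. snu13b, a protein shared by box C/D snoRNA particles and the U4 particle of the spliceosome, had 44, 48.5 and 40 CPM at 4 dpi, against 129.5, 574 and 1078 CPM at 2 dpi (log2 fold change -3.75, SE 0.86, adjusted p = 0.023).

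**Figure D2:**
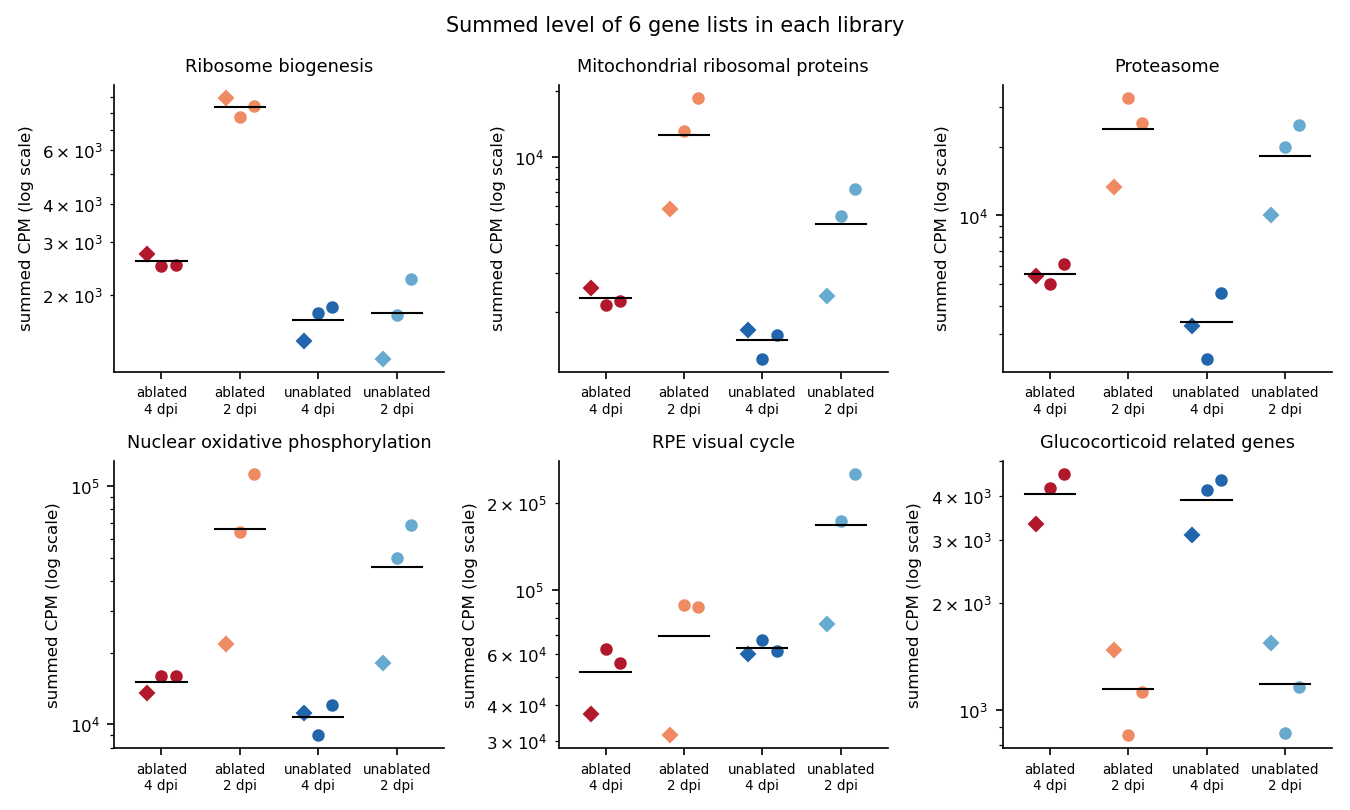
Summed CPM on a log scale of 6 gene lists in each library, by group, with diamonds for replicate 1, circles for replicates 2 and 3 and bars for the group mean. Ribosome biogenesis is high in the 3 ablated 2 dpi libraries, 7721 to 8967 CPM, and 1230 to 2730 CPM in the other 9. The mitochondrial ribosomal, proteasome, oxidative phosphorylation and glucocorticoid-related lists differ by time in both ablated and unablated libraries. The visual cycle list overlaps between the times in ablated libraries and lies lower at 4 dpi, without overlap, in unablated libraries.

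The drop of the ribosome biogenesis list was present in each subset of libraries, at different sizes. Its median log2 change was -1.60 between the replicate 1 libraries, whose sequencing names carry no date, and -0.80 between the dated libraries. With the trend of fold change on gene length removed, an alternative added after the values were seen, the median was -1.49 and 12 members fell. On log2(TPM + 1) the median was -0.22, where that of all genes was 0.435, and 1 member fell. A median of -0.88 and 13 falls were seen without ablated 2 dpi replicate 1, and in the 5 fits that each lacked another library 0 were called, with medians of -1.41 to -1.23.

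Subunits of the RNA polymerases fell too. Of 31 RNA polymerase subunits, a list added after the values were seen, 17 fell (54.8%, against 3.28% of all tested genes) and 0 rose. Their median was -2.17. In unablated RPE 5 fell, against 2.76% of all tested genes, with a median of -0.94. polr1e, a subunit of RNA polymerase I, had 26.2, 18.3 and 21.1 CPM at 4 dpi, against 98.2, 118 and 78.5 CPM at 2 dpi (log2 fold change -2.17, SE 0.48, adjusted p = 0.021). polr1d, shared by polymerases I and III, had 30.1, 18.7 and 20.4 CPM at 4 dpi, against 58, 212 and 527 CPM at 2 dpi (log2 fold change -3.53, SE 0.67, adjusted p = 0.018). cd3eap, also of polymerase I, had 14.5, 12.2 and 6.47 CPM at 4 dpi, against 48.2, 86.2 and 79.4 CPM at 2 dpi (log2 fold change -2.69, SE 0.47, adjusted p = 0.018), and its unablated change was -0.45 (adjusted p = 0.63). All 3 genes were lower in each 4 dpi library than in any 2 dpi library. polr2c, of polymerase II, fell (log2 fold change -2.22, SE 0.42, adjusted p = 0.018). mycb, a zebrafish gene of Myc, a factor known to drive ribosome production in other systems, had 26.7, 27.6 and 23.8 CPM at 4 dpi, against 53, 69.5 and 70.6 CPM at 2 dpi (log2 fold change -1.31, SE 0.36, adjusted p = 0.046). Any part of mycb in the other falls was not tested.

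Cytosolic ribosomal proteins, the other part of the ribosome, gave another result. Of 78 tested members 1 fell (1.28%, against 3.28% of all tested genes), rpl7l1, which encodes an L7-like protein of ribosome precursors (log2 fold change -2.60, SE 0.60, adjusted p = 0.025). Their median was -1.48, but it was 0.40 between the undated libraries and -1.62 between the dated ones, and 60 fell when only dated libraries were fitted. Their summed level was 16496, 34650 and 31029 CPM at 4 dpi, against 13553, 65763 and 124611 CPM at 2 dpi. The 4 dpi libraries thus lay within the range of the 2 dpi libraries.

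**Figure D3:**
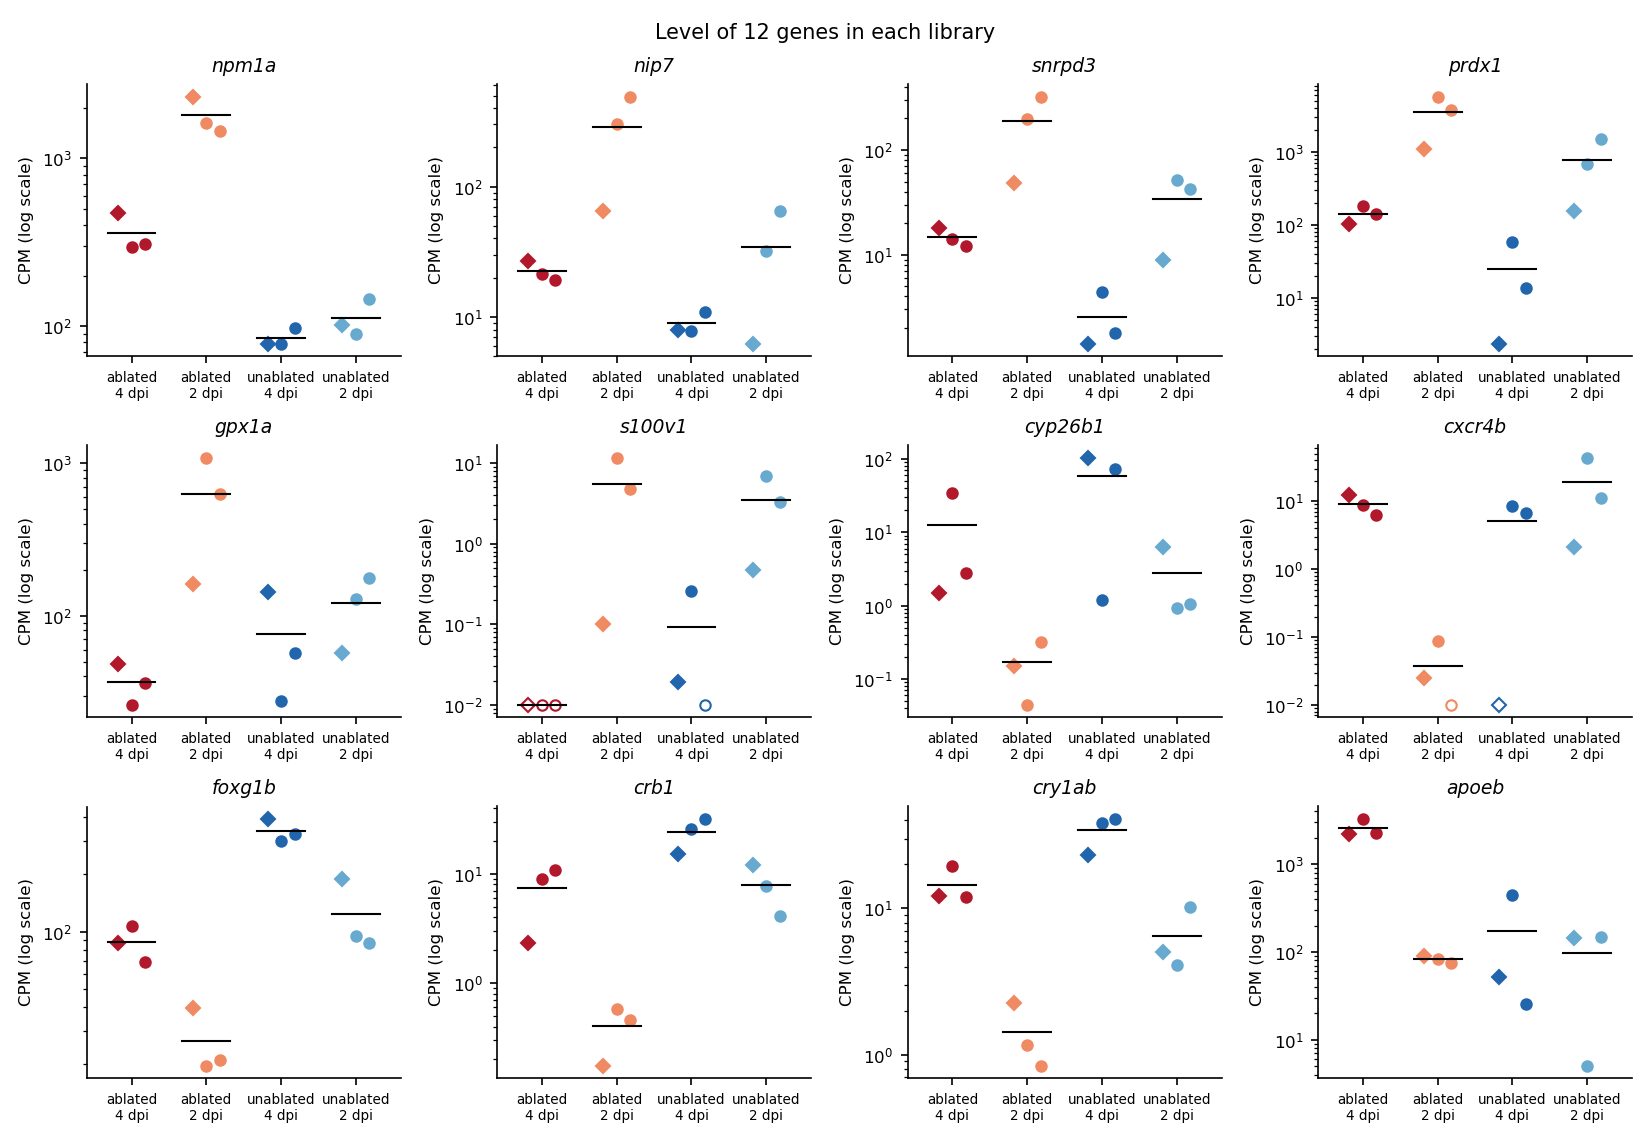
CPM on a log scale of 12 genes in each library, by group, with diamonds for replicate 1, circles for replicates 2 and 3, bars for the group mean and open symbols for values of 0, drawn at 0.01. In npm1a, nip7, snrpd3, prdx1, gpx1a and s100v1 the ablated 4 dpi values lie below all ablated 2 dpi values, and in the other 6 above them.

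Mitochondrial ribosomal proteins fell almost as a complete set. Of 73 tested members 65 fell (89%, against 3.28% of all tested genes) and 0 rose. All 73 had a negative fold change, and the median was -2.59. Their summed level was 2552, 2156 and 2244 CPM at 4 dpi, against 5829, 13202 and 18650 CPM at 2 dpi, so that replicate 1 was lowest at 2 dpi and yet above every 4 dpi library. In unablated RPE 34 fell, against 2.76% of all tested genes, with a median of -1.95, and all 34 were also called in ablated RPE. mrpl19, of the large subunit, had 44.3, 29.1 and 40 CPM at 4 dpi, against 123, 222 and 155 CPM at 2 dpi (log2 fold change -2.14, SE 0.36, adjusted p = 0.018). mrps31, of the small subunit, had 21.7, 17.5 and 18 CPM at 4 dpi, against 64.2, 72.2 and 85.7 CPM at 2 dpi (log2 fold change -1.96, SE 0.34, adjusted p = 0.018), and its unablated change was -0.60 (adjusted p = 0.33). mrpl52 and mrps18c, among the 15 largest falls, fell, with log2 fold changes of -3.62 and -3.53 (adjusted p = 0.019 for both). On log2(TPM + 1) 35 members fell, with a median of -1.50.

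The nuclear genes of oxidative phosphorylation followed. Of 99 tested 49 fell (49.5%, against 3.28% of all tested genes) and 0 rose, with a median of -2.25. In unablated RPE 45 fell, against 2.76% of all tested genes, with a median of -2.20. cycsb, a cytochrome c gene, had 194, 233 and 176 CPM at 4 dpi, against 861, 1939.6 and 1662 CPM at 2 dpi (log2 fold change -2.89, SE 0.51, adjusted p = 0.018). cox5aa, of cytochrome c oxidase, had 132, 150.4 and 141 CPM at 4 dpi, against 290.4, 1186 and 2052 CPM at 2 dpi (log2 fold change -3.06, SE 0.61, adjusted p = 0.018). ndufab1a, the acyl carrier protein of complex I, and sdhaf2, an assembly factor of complex II, fell, with log2 fold changes of -2.62 and -2.45 (adjusted p = 0.018 for both). The 13 genes of the mitochondrial genome itself gave no call and a median of -1.38, with 0.54 between the undated and -1.88 between the dated libraries. With the length trend removed 33 nuclear members fell, with only the 6 ablated libraries fitted 12 fell, and on log2(TPM + 1) 9 fell and 1 rose.

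Mitochondrial import and the folding of imported proteins showed the same direction. Of 23 import genes, a list added after the values were seen, 9 fell (39.1%, against 3.28% of all tested genes), with a median of -1.735. In unablated RPE 7 fell, against 2.76% of all tested genes, with a median of -1.30. All 7 were also called in ablated RPE. Among the 9 was tomm22, a receptor of the outer membrane, at 163, 105 and 97.3 CPM at 4 dpi, against 559, 549 and 329.9 CPM at 2 dpi (log2 fold change -1.98, SE 0.37, adjusted p = 0.018). timm10, a carrier of the space between the membranes, fell (log2 fold change -2.98, SE 0.53, adjusted p = 0.018). hspe1, the mitochondrial co-chaperonin, had 104, 97.4 and 96.7 CPM at 4 dpi, against 275, 996 and 1542 CPM at 2 dpi (log2 fold change -3.24, SE 0.73, adjusted p = 0.023). It was the 1 member called among 39 cytosolic and mitochondrial chaperones (2.56%, against 3.28% of all tested genes called lower). They had a median of -0.56, or 0.28 on log2(TPM + 1).

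Subunits of the proteasome, which degrades ubiquitin-tagged proteins, fell in ablated and in unablated RPE. Of 42 tested 24 fell (57.1%, against 3.28% of all tested genes) and 0 rose, with a median of -1.64. In unablated RPE 30 fell, against 2.76% of all tested genes, with a median of -2.27, and 21 were called in both. Their summed level was 5424, 4962 and 6097 CPM at 4 dpi, against 13420, 33138 and 25488 CPM at 2 dpi. psmb7, of the catalytic core, had 317, 317 and 404 CPM at 4 dpi, against 1059, 5184 and 3582 CPM at 2 dpi (log2 fold change -3.24, SE 0.60, adjusted p = 0.018). psma5, also of the core, had 200.2, 135 and 159 CPM at 4 dpi, against 552, 1472 and 906 CPM at 2 dpi (log2 fold change -2.57, SE 0.52, adjusted p = 0.018). psmd10, which helps to assemble the regulatory particle, and psmd14, a subunit of it, fell, with log2 fold changes of -2.86 and -2.22 (adjusted p = 0.018 and 0.018). Within the 12 libraries of 2 and 4 dpi 13 members fell, and on log2(TPM + 1) 5 fell with a median of -0.74.

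Small spliceosomal proteins fell as well. Of 35 Sm, LSm and SF3 genes, a list added after the values were seen, 19 fell (54.3%, against 3.28% of all tested genes) and 0 rose. Their median was -2.40. In unablated RPE 16 fell, against 2.76% of all tested genes, with a median of -1.92. snrpd3, a core Sm protein, had 17.9, 14.1 and 12.2 CPM at 4 dpi, against 48.6, 199.8 and 322 CPM at 2 dpi (log2 fold change -3.69, SE 0.70, adjusted p = 0.018). snrpe and snrpd2 fell, with log2 fold changes of -3.65 and -3.14 (adjusted p = 0.018 for both). Outside the list, ppil1, a cyclophilin of the spliceosome, fell (log2 fold change -3.58, SE 0.86, adjusted p = 0.028), and dph3, which acts in the modification of elongation factor 2, fell as well (log2 fold change -3.67, SE 0.72, adjusted p = 0.018).

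Antioxidant enzymes were among the largest falls. prdx1, a peroxiredoxin that reduces hydrogen peroxide, had 103, 183 and 140.1 CPM in ablated 4 dpi libraries, against 1116, 5686 and 3744 CPM in ablated 2 dpi libraries (log2 fold change -4.63, SE 1.09, adjusted p = 0.026). In unablated RPE prdx1 also fell, with 2.36, 59.3 and 13.8 CPM in unablated 4 dpi libraries, against 157, 686 and 1503 CPM in unablated 2 dpi libraries (log2 fold change -4.96, SE 1.11, adjusted p = 0.029). gpx1a, a glutathione peroxidase, had 47.9, 26 and 36.3 CPM at 4 dpi, against 161, 1080 and 627 CPM at 2 dpi (log2 fold change -4.08, SE 0.77, adjusted p = 0.018), and its unablated libraries overlapped between the times (log2 fold change -0.68, adjusted p = 0.64). txn, thioredoxin, had 781, 388 and 384 CPM at 4 dpi, against 1479.8, 6025 and 7946 CPM at 2 dpi (log2 fold change -3.32, SE 0.75, adjusted p = 0.022). gpx3, the secreted glutathione peroxidase, moved the other way, with 98.3, 48 and 71.2 CPM at 4 dpi, against 13.8, 13.1 and 21 CPM at 2 dpi (log2 fold change 2.18, SE 0.48, adjusted p = 0.021). Among 44 genes of oxidative stress and iron 7 fell (15.9%, against 3.28% of all tested genes) and 2 rose (4.55%, against 1.02%). Their median was -1.14, and in unablated RPE the median was -1.27.

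Among 43 genes of p53 response, growth arrest and cell death 2 fell (4.65%, against 3.28% of all tested genes) and 0 rose. Their median was -0.12, and 20 fold changes were positive. gadd45aa, a growth arrest gene induced by DNA damage, had 16, 17.9 and 8.46 CPM at 4 dpi, against 42.3, 304 and 125 CPM at 2 dpi (log2 fold change -3.47, SE 0.61, adjusted p = 0.018). tigarb, a regulator of glycolysis in the p53 response of mammals, had 8.99, 7.73 and 8.65 CPM at 4 dpi, against 24.4, 45.6 and 25.6 CPM at 2 dpi (log2 fold change -1.91, SE 0.40, adjusted p = 0.019). Other large falls had varied roles. rgs5b, a regulator of G protein signalling, had 1.03, 2.60 and 1.16 CPM at 4 dpi, against 38.9, 55.2 and 52.8 CPM at 2 dpi (log2 fold change -4.94, SE 1.05, adjusted p = 0.023). s100v1, a gene of the S100 family of calcium-binding proteins, had no count in any 4 dpi library and 0.0997, 11.6 and 4.83 CPM at 2 dpi, at least 94.5-fold lower at 4 dpi with 3 counts granted per library (adjusted p = 0.032). tpmt.1 and tpmt.2, thiopurine methyltransferase genes with similar copies, fell, with log2 fold changes of -3.64 and -4.22 (adjusted p = 0.018 for both). How reads were divided between the tpmt copies is not known, so their separate values are uncertain.

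**Figure D4:**
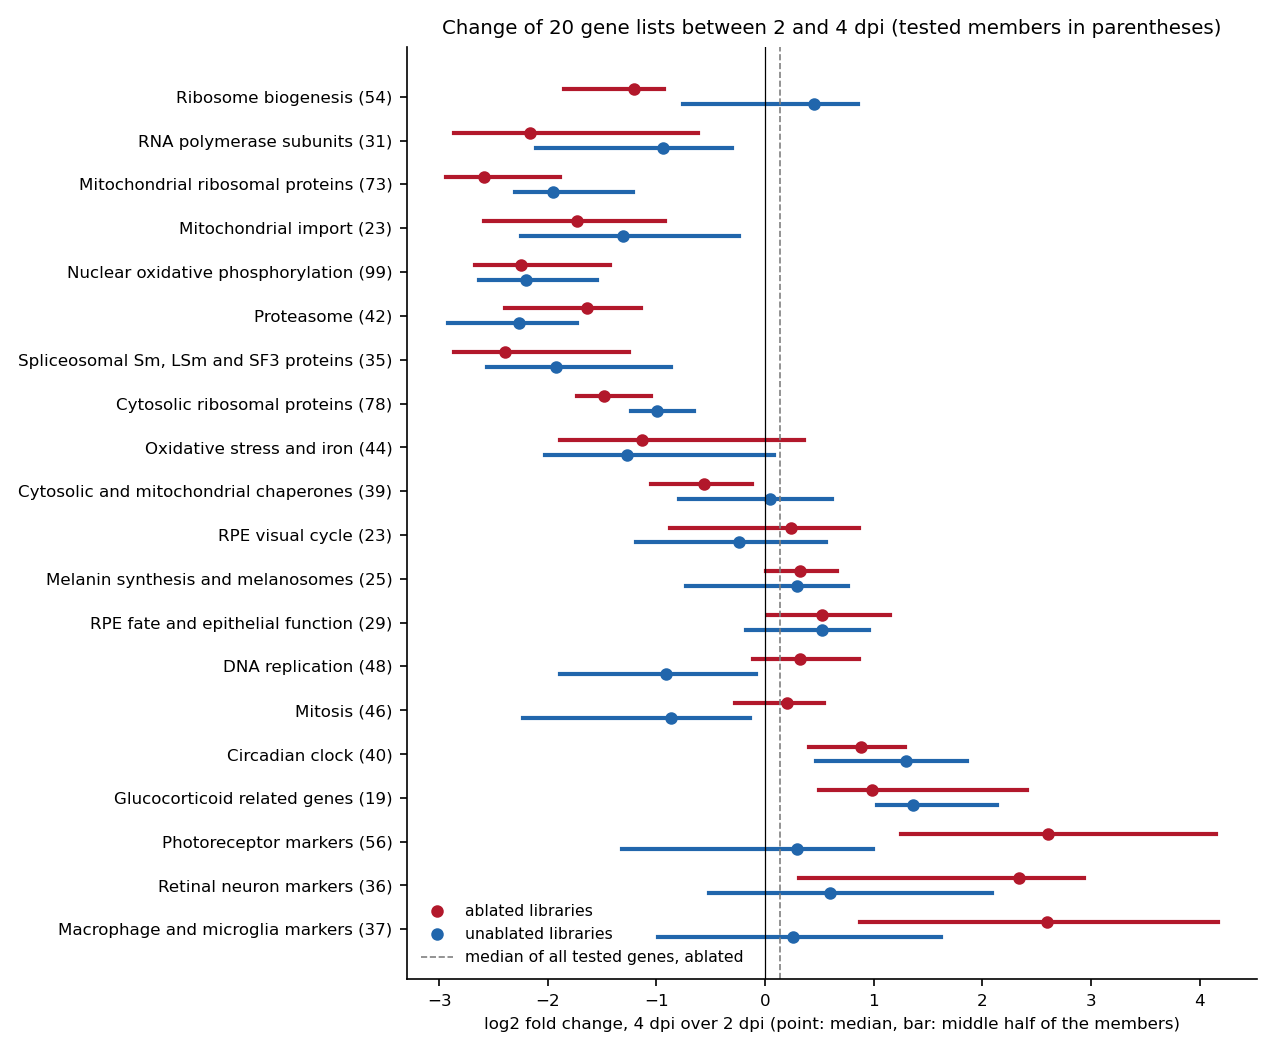
Median log2 fold change, 4 over 2 dpi, of the tested members of 20 gene lists (points) with the range of their middle quartiles (bars), in ablated libraries above unablated libraries. Both lie well below 0 for mitochondrial, proteasome and spliceosome lists, whereas for ribosome biogenesis the medians are -1.21 in ablated and 0.45 in unablated libraries.

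The falls were concentrated among short genes. Relative length, taken as count over TPM with the median gene near 1, had a median of 0.44 for the genes called lower, 1.14 for those called higher and 0.93 for all tested genes. In the shortest length decile of genes 11.5% were called lower and 0.151% higher, and in the longest decile 0.101% and 1.06%. The median fold change in the shortest length decile was -0.92 in ablated and -1.06 in unablated RPE. Ribosome biogenesis genes had a median relative length of 1.01, RNA polymerase subunits 0.65, proteasome genes 0.55, mitochondrial ribosomal proteins 0.40 and oxidative phosphorylation genes 0.38. The part of length in the results was not tested beyond the fit with the length trend removed, which called 120 genes higher and 558 lower, 580 of them among the 864.

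**Figure D5:**
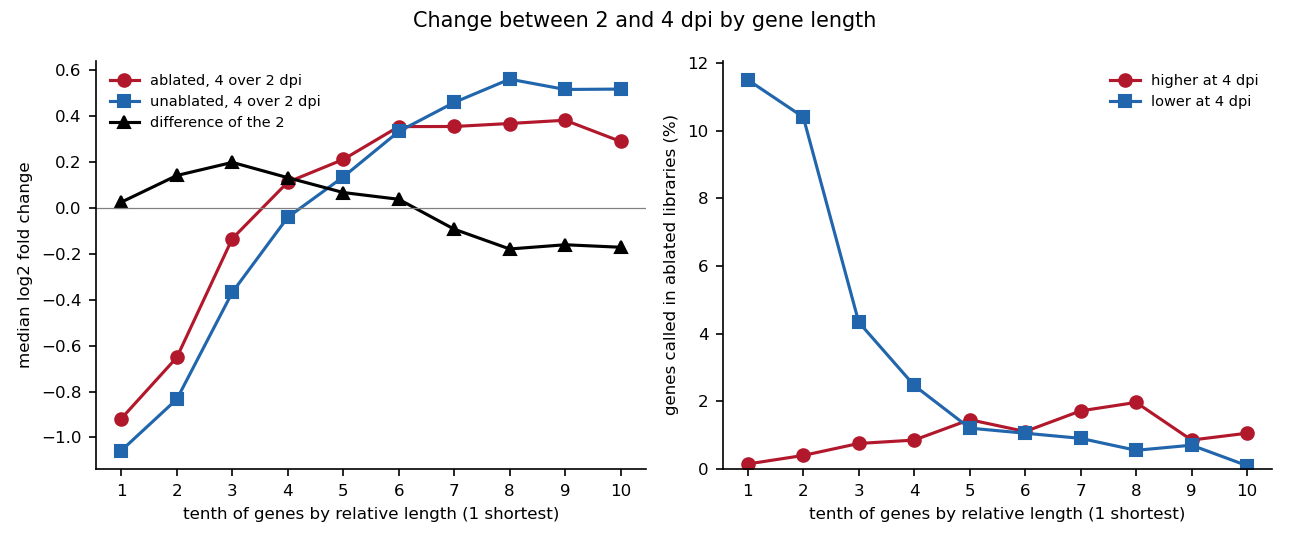
Left, median log2 fold change of genes in deciles of relative length from shortest to longest, for ablated libraries, unablated libraries and their difference. Right, share of genes in each decile that was called higher or lower in ablated libraries, where 11.5% of the shortest length decile and 0.101% of the longest were called lower.

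Sequencing names gave the other division of the libraries. Replicate 1 of each group has no date in its name. Ablated 2 dpi replicates 2 and 3 share a date that no 4 dpi library carries, and ablated 4 dpi replicates 2 and 3 carry a different date each. Between the undated libraries the genes called lower had a median log2 difference of -0.99, with 647 of 659 below 0, and between the dated libraries -2.86, with 659 below 0. For the genes called higher the medians were 2.15 and 2.55, with 204 and 205 of 205 above 0. A date is not stated to be a batch, and among the dated libraries date and time after injury cannot be told apart.

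RPE identity genes were not called. rpe65a (ENSDARG00000007480, chromosome 2, 2316199 to 2331029) had 5767, 12227 and 7883 CPM in ablated 4 dpi libraries, against 3666, 7922 and 11542 CPM in ablated 2 dpi libraries (log2 fold change 0.16, SE 0.52, adjusted p = 0.92). Its times overlapped. The sign of that change turned without ablated 4 dpi replicate 2 or ablated 2 dpi replicate 1, to -0.16 in both fits. By TPM the times did not overlap, with 7119, 15658 and 10383 at 4 dpi, against 4423, 4680 and 5467 at 2 dpi, and the difference of 1.12 on log2(TPM + 1) was not called. tyrp1b had 19893, 29522 and 31367 CPM at 4 dpi, against 40938, 11160 and 13684 CPM at 2 dpi, again with overlap (log2 fold change 0.30, SE 0.61, adjusted p = 0.87), and stood at -0.0081 without ablated 2 dpi replicate 2. The 23 visual cycle genes gave 0 calls in edgeR and 1 lower in DESeq2, 1 with an unadjusted p under 0.05, and a median of 0.24. That median ran from -0.075 to 0.55 with 1 ablated library left out. The list summed to 37092 to 62680 CPM at 4 dpi, against 31349 to 88885 CPM at 2 dpi, with overlap. Unablated RPE summed to 59953 to 67181 CPM at 4 dpi, against 75987 to 252682 CPM at 2 dpi, without overlap. It had 0 calls and a median of -0.24. The 25 genes of melanin synthesis gave 0 calls in edgeR and 3 in DESeq2, 3 with an unadjusted p under 0.05, and a median of 0.32. rdh12l, a retinol dehydrogenase gene counted with retinoic acid metabolism, was called lower, at 27.9, 12 and 14.2 CPM at 4 dpi, against 39.3, 99.9 and 51.2 CPM at 2 dpi (log2 fold change -1.81, SE 0.48, adjusted p = 0.04). Among 29 genes of RPE fate and epithelial function 1 rose (3.45%, against 1.02% of all tested genes). It was slc16a1a, a carrier of lactate and other monocarboxylates (ENSDARG00000016963, chromosome 6, 48979549 to 49050670), with 675, 1008 and 1005 CPM at 4 dpi, against 279, 132 and 204 CPM at 2 dpi (log2 fold change 2.13, SE 0.41, adjusted p = 0.018). Its 3 values at 4 dpi lay far above those at 2 dpi, while in unablated RPE its fold change was 0.83 (adjusted p = 0.26). mfge8a, a bridging protein in the uptake of outer segments by mammalian RPE, had 2011, 1424 and 1986 CPM at 4 dpi, against 965, 573 and 630.3 CPM at 2 dpi and missed the threshold (log2 fold change 1.32, SE 0.43, adjusted p = 0.092).

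The 15 largest rises included genes of varied roles. cyp26b1, which breaks down retinoic acid, had 1.51, 33.9 and 2.80 CPM at 4 dpi, against 0.150, 0.0444 and 0.325 CPM at 2 dpi (log2 fold change 6.20, SE 1.57, adjusted p = 0.035), and replicate 2 held most of its 4 dpi level. crb1, a Crumbs protein of apical polarity, had 2.34, 9.01 and 10.9 CPM at 4 dpi, against 0.174, 0.577 and 0.464 CPM at 2 dpi (log2 fold change 4.21, SE 1.00, adjusted p = 0.027), with no overlap. prom1b, a prominin of membrane protrusions, rose by 5.04 on the log2 scale (SE 1.35, adjusted p = 0.043), atp1b2b, a beta subunit of the sodium pump, by 4.13 (SE 1.08, adjusted p = 0.039), and adrb1, a beta-adrenergic receptor, by 4.61 (SE 1.17, adjusted p = 0.035). Unablated log2 fold changes were also positive, at 4.39 for cyp26b1, 1.60 for crb1, 3.35 for prom1b and 3.67 for adrb1. None of them passed (adjusted p = 0.083, 0.33, 0.14 and 0.069).

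Photoreceptor transcripts were higher at 4 dpi, unevenly between libraries. Of 56 photoreceptor markers 4 rose (7.14%, against 1.02% of all tested genes) and 0 fell. Their median was 2.61, or 2.53 with members that had no count at 2 dpi at their bound. rho, the opsin of rods, had 4.15, 1634 and 316 CPM at 4 dpi, against 5.48, 3.59 and 3.02 CPM at 2 dpi (log2 fold change 7.33, SE 1.72, adjusted p = 0.026), so that replicate 1 at 4 dpi lay within the 2 dpi range and replicate 2 was the highest by far. prph2b, which shapes the rims of outer segment discs, had 5, 23.1 and 8.27 CPM at 4 dpi, against 0.548, 0.532 and 0.975 CPM at 2 dpi (log2 fold change 4.14, SE 0.91, adjusted p = 0.021). rom1b, of the same rims, had 2.67, 43.8 and 14.6 CPM at 4 dpi, against 0, 0.310 and 0.0928 CPM at 2 dpi (log2 fold change 7.33, SE 1.71, adjusted p = 0.025), and neither overlapped between the times. guca1a, which activates guanylate cyclase in photoreceptors, had 92.2, 159 and 103 CPM at 4 dpi, against 21.6, 21.4 and 40 CPM at 2 dpi (log2 fold change 2.09, SE 0.46, adjusted p = 0.021). The median of the list was 0.50 between the undated libraries, 2.68 between the dated ones and 1.38 without ablated 4 dpi replicate 2.

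The marker list summed to 5140, 6590 and 4521 CPM at 4 dpi, against 2770, 2531 and 3879 CPM at 2 dpi, and 3 members had no count at 2 dpi. Unablated RPE summed to 13608, 6879 and 6992 CPM at 4 dpi, against 6609, 3677 and 7565 CPM at 2 dpi, with a median of 0.30 and 0 calls. The difference of the 2 changes was positive with an unadjusted p under 0.05 for 11 of 56 members, against 2.51% of all genes, and was called for 0. Retinal neuron markers, of which 0 of 36 were called in edgeR, 8 had an unadjusted p under 0.05 and 4 were called in DESeq2, summed to 478, 421 and 341 CPM at 4 dpi, against 165, 280 and 247 CPM at 2 dpi. All 8 of these neuron markers were higher at 4 dpi. Over all 20093 tested genes 3561 (17.7%) had an unadjusted p under 0.05 in edgeR, 1620 of them higher. DESeq2 called 2204 of 16118, 787 of them higher. Unablated RPE summed to 425.4 to 536.3 CPM for these neuron markers at 4 dpi, against 322.7 to 350.7 CPM at 2 dpi. Mueller glia markers, with 1 of 26 called higher (3.85%, against 1.02% of all tested genes), summed to 6050, 3663 and 4204 CPM at 4 dpi, against 2680, 2738 and 2641 CPM at 2 dpi. Of these markers 17 had a positive and 9 a negative fold change, and 3 higher and 4 lower ones had an unadjusted p under 0.05 in edgeR. In unablated RPE they summed to 16488, 8164 and 7069 CPM at 4 dpi, against 7299, 7971 and 5595 CPM at 2 dpi. The member called in ablated RPE was gpr37a, a receptor gene, with a ratio of 121 with a 95% counting interval from 21.5 to 4789 (adjusted p = 0.027). glula, glutamine synthetase of Mueller glia and also high in these RPE libraries, had 3697, 1908 and 2087 CPM at 4 dpi, against 930.4, 229 and 308 CPM at 2 dpi and missed the threshold (log2 fold change 2.39, SE 0.69, adjusted p = 0.059). On average glula rose by more than the summed level of the whole Mueller glia list. The other members of that list together thus did not stand higher at 4 dpi. The part of other retinal cells or their RNA in the rises was not tested.

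Fibroblast and periocular mesenchyme markers also stood higher at 4 dpi. Of 22 tested 2 rose (9.09%, against 1.02% of all tested genes) and 0 fell. Of the 22, 21 had a positive fold change and the median was 1.68. They summed to 794.1, 578.5 and 786.4 CPM at 4 dpi, against 214.8, 223.4 and 305.2 CPM at 2 dpi, without overlap. Unablated RPE summed to 577.9 to 856.3 CPM at 4 dpi, against 356.1 to 461.4 CPM at 2 dpi, also without overlap, with a median of -0.04 and 0 calls. loxl1, which crosslinks elastin, had 657, 416 and 634 CPM at 4 dpi, against 140.2, 145 and 216 CPM at 2 dpi (log2 fold change 1.77, SE 0.44, adjusted p = 0.032). This gene alone held most of the summed level of the list in each ablated library of both times. cyp1b1, a cytochrome P450 of the developing eye, had 1.89, 2.36 and 1.81 CPM at 4 dpi, against 0.0748, 0.0887 and 0.0928 CPM at 2 dpi (log2 fold change 4.53, SE 0.91, adjusted p = 0.018). Both are markers of that list, and the part of mesenchymal cells in the rises was not tested. Of 47 growth factor ligands and receptors 1 rose (2.13%, against 1.02% of all tested genes). fgfr3, a receptor of fibroblast growth factors, had 54.4, 109.7 and 131 CPM at 4 dpi, against 26.1, 36.1 and 36.5 CPM at 2 dpi (log2 fold change 1.58, SE 0.34, adjusted p = 0.02).

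Genes of the eye field and of retinal progenitors rose in 3 of 43 cases (6.98%, against 1.02% of all tested genes), with a median of 0.74. meis1a, a homeobox gene, had no count at 2 dpi and was at least 8.93-fold higher (adjusted p = 0.034). foxg1b, a forkhead gene of the forebrain and eye, had 87.6, 107 and 69.1 CPM at 4 dpi, against 39.4, 19.6 and 21 CPM at 2 dpi (log2 fold change 1.72, SE 0.42, adjusted p = 0.031).

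A few circadian and glucocorticoid-related genes rose in ablated RPE. Of 40 clock genes 3 rose (7.5%, against 1.02% of all tested genes) and 0 fell. Their median was 0.88. In unablated RPE 4 rose, against 0.811% of all tested genes, with a higher median. cry1ab, a light-regulated cryptochrome, had 12.2, 19.5 and 12 CPM in ablated 4 dpi libraries, against 2.27, 1.15 and 0.835 CPM in ablated 2 dpi libraries (log2 fold change 3.34, SE 0.60, adjusted p = 0.018). tefb, a PAR bZIP factor driven by the clock, had 12, 14.7 and 16 CPM at 4 dpi, against 2.69, 2.53 and 1.21 CPM at 2 dpi (log2 fold change 2.73, SE 0.55, adjusted p = 0.018), and its unablated rise was 2.82 (adjusted p = 0.019). cry2 had 29, 90.8 and 49.3 CPM at 4 dpi, against 18.1, 15.7 and 15.2 CPM at 2 dpi (log2 fold change 1.79, SE 0.47, adjusted p = 0.04). The times of day at which cells were taken were not given in the sources used here.

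The 19 glucocorticoid-related genes, a list added after the values were seen, summed to 3333, 4205 and 4603 CPM at 4 dpi, against 1473, 851 and 1127 CPM at 2 dpi. Unablated RPE had nearly the same sums, 3100, 4150 and 4424 CPM at 4 dpi, against 1543, 861 and 1162 CPM at 2 dpi. hsd11b2, which inactivates cortisol, had 1451, 1856 and 2566 CPM at 4 dpi, against 140.4, 91 and 264 CPM at 2 dpi (log2 fold change 3.57, SE 0.79, adjusted p = 0.021). fkbp5, a co-chaperone of the glucocorticoid receptor, had 101, 206 and 76.9 CPM at 4 dpi, against 16.7, 1.77 and 9.14 CPM at 2 dpi (log2 fold change 3.79, SE 0.88, adjusted p = 0.025). cebpd, a bZIP factor of acute responses, had 57.2, 60.2 and 32.8 CPM at 4 dpi, against 3.02, 4.44 and 3.71 CPM at 2 dpi (log2 fold change 3.75, SE 0.98, adjusted p = 0.04). These were the 3 called members (15.8%, against 1.02% of all tested genes), and none overlapped between the times. The list had a median of 0.98 in ablated and 1.36 in unablated RPE.

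Cytokine and chemokine genes went both ways. Of 30 tested 1 rose (3.33%, against 1.02% of all tested genes) and 0 fell. Of these 30, 16 had a positive and 14 a negative fold change, and the median was 0.26. Their summed level overlapped between the times, at 458.9 to 1014 CPM at 4 dpi, against 868.5 to 2823 CPM at 2 dpi. Lower values at 4 dpi that did not pass the test were seen in 3 signalling genes. il11b, a cytokine related to IL-6, had 40.1, 14.2 and 11.8 CPM at 4 dpi, against 91.5, 142 and 256 CPM at 2 dpi (log2 fold change -2.89, SE 1.13, adjusted p = 0.18), and unablated RPE had at most 0.228 CPM at either time. cxcl18b, a chemokine, had 245, 185 and 467 CPM at 4 dpi, against 689, 976 and 2412 CPM at 2 dpi (log2 fold change -2.19, SE 0.92, adjusted p = 0.21), and hbegfa, an EGF receptor ligand, had 78.5, 36.2 and 40.2 CPM at 4 dpi, against 123, 158 and 155 CPM at 2 dpi (log2 fold change -1.50, SE 0.49, adjusted p = 0.097). All 3 were separate between the times, as were 25.4% of all tested genes, and all 3 were named after their values were seen. The 1 call was cxcl14, which rose, at 666, 123 and 192 CPM at 4 dpi, against 33.1, 29.8 and 31.2 CPM at 2 dpi (log2 fold change 3.38, SE 0.92, adjusted p = 0.046). Among 33 genes of gp130 and JAK/STAT signalling cebpd and the kinase gene pim2 rose (6.06%, against 1.02% of all tested genes). pim2 had 36.9, 18.4 and 23.4 CPM at 4 dpi, against 6.38, 2.31 and 2.65 CPM at 2 dpi (log2 fold change 2.79, SE 0.72, adjusted p = 0.037). il13ra2, a decoy receptor for interleukin 13, had 83.5, 45.7 and 48 CPM at 4 dpi, against 0.873, 2.71 and 0.139 CPM at 2 dpi (log2 fold change 5.58, SE 0.96, adjusted p = 0.018). In unablated RPE il13ra2 was higher at 4 dpi too, with 221, 219 and 191 CPM, against 32.7, 34.4 and 9.23 CPM at 2 dpi, and just missed the threshold (log2 fold change 3.05, adjusted p = 0.054).

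Macrophage and microglia markers were higher at 4 dpi in sign, with 0 calls in edgeR, 8 at an unadjusted p under 0.05 and 5 in DESeq2. Over all 20093 tested genes 3561 (17.7%) had an unadjusted p under 0.05 in edgeR, 1620 of them higher. DESeq2 called 2204 of 16118 genes, 787 of them higher. Of 37 tested members 35 had a positive fold change, with a median of 2.59, and their sum was 178, 566 and 292 CPM at 4 dpi, against 156, 102 and 103 CPM at 2 dpi. mpeg1.1, a defining macrophage gene, had 0.685, 21.2 and 2.60 CPM at 4 dpi, against 0, 0.0887 and 0 CPM at 2 dpi, a ratio of 251 with a 95% counting interval from 69.4 to 2079 (adjusted p = 0.22), and p2ry12, a microglial receptor gene, had no count at 2 dpi. apoeb, an apolipoprotein E gene strongly used by microglia and also made by other cells, had 2201, 3281 and 2277 CPM at 4 dpi, against 88.9, 83.5 and 75 CPM at 2 dpi (log2 fold change 4.97, SE 1.39, adjusted p = 0.051). The ratio of its means was 31.4, without overlap, and the gene just missed the threshold. thbs1b, a thrombospondin, had 3466, 1042 and 2288 CPM at 4 dpi, against 482, 473 and 656 CPM at 2 dpi and missed it too (log2 fold change 2.08, SE 0.60, adjusted p = 0.058). Both were named after their values were seen. apoeb in unablated RPE ranged from 25.8 to 448 CPM at 4 dpi and from 5.03 to 146 CPM at 2 dpi. The part of immune cells in these values was not tested.

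Further large rises followed. cxcr4b, the receptor of the chemokine Cxcl12, had 12.1, 8.80 and 6.27 CPM at 4 dpi, against 0.0249, 0.0887 and 0 CPM at 2 dpi, a ratio of 264 with a 95% counting interval from 90.3 to 1283 (adjusted p = 0.035). c7a, a component of the membrane attack complex of complement, had 22.6, 16.8 and 19.7 CPM at 4 dpi, against 0.274, 0 and 0.139 CPM at 2 dpi (log2 fold change 7.05, SE 1.72, adjusted p = 0.03), and stood at 0.148 CPM or less in the unablated libraries of both times. ndrg1b had 130.4, 13.8 and 10.5 CPM at 4 dpi, against 1.15, 2.17 and 0.278 CPM at 2 dpi (log2 fold change 5.42, adjusted p = 0.021), and replicate 1 was highest at 4 dpi. apof, an apolipoprotein, had 176, 45.4 and 72.7 CPM at 4 dpi, against 9.75, 1.55 and 5.01 CPM at 2 dpi (log2 fold change 4.17, SE 1.01, adjusted p = 0.029). tmtc2a, an enzyme of O-mannosylation in mammals, had 111, 65.9 and 132 CPM at 4 dpi, against 5.83, 1.51 and 4.22 CPM at 2 dpi (log2 fold change 4.73, SE 0.81, adjusted p = 0.018). epdl1, an ependymin-like gene, and lactbl1a rose by 5.27 and 6.26 in log2 units (adjusted p = 0.018 and 0.037). Unablated log2 fold changes were 2.66 for tmtc2a, 1.57 for ndrg1b, 1.16 for epdl1, 1.84 for lactbl1a and -1.91 for cxcr4b. None of them passed (adjusted p = 0.054, 0.42, 0.50, 0.46 and 0.49). slc2a11a, a gene of the sugar transporter family, had 10.5, 3.91 and 4.68 CPM at 4 dpi, against 0.748, 0.710 and 0.557 CPM at 2 dpi (log2 fold change 3.23, SE 0.75, adjusted p = 0.026).

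Secretory, early-response and structural genes gave isolated calls. herpud1, which acts in the degradation of misfolded proteins at the endoplasmic reticulum, had 74.1, 119 and 101 CPM at 4 dpi, against 44.5, 27.3 and 39.2 CPM at 2 dpi (log2 fold change 1.41, SE 0.39, adjusted p = 0.05), and ssr3, of the translocon, had 104, 129 and 102 CPM at 4 dpi, against 121, 491 and 636 CPM at 2 dpi with overlap (log2 fold change -1.90, SE 0.52, adjusted p = 0.049). These were the 2 calls among 50 genes of the secretory list, 2% in each direction, against 1.02% of all tested genes higher and 3.28% lower. csrnp1a, an immediate early nuclear gene, had 58, 97.9 and 62.8 CPM at 4 dpi, against 23.8, 6.34 and 12.2 CPM at 2 dpi (log2 fold change 2.37, SE 0.62, adjusted p = 0.04). krt222, a keratin-like gene, had 323, 243 and 282 CPM at 4 dpi, against 103, 62 and 114 CPM at 2 dpi (log2 fold change 1.60, SE 0.41, adjusted p = 0.035). atp6v1g1, of the proton pump of lysosomes, had 467, 414 and 384 CPM at 4 dpi, against 612, 2089 and 1609 CPM at 2 dpi (log2 fold change -1.77, SE 0.47, adjusted p = 0.042).

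Of 38 glycolysis genes 2 rose (5.26%, against 1.02% of all tested genes) and 0 fell, with a median of 0.07. The 2 were eno1b, an enolase, at 33.1, 31.6 and 34.9 CPM at 4 dpi, against 8.45, 2.84 and 5.34 CPM at 2 dpi (log2 fold change 2.58, SE 0.46, adjusted p = 0.018), and pfkfb4b, a regulator of glycolytic flux, at 37.9, 72.6 and 39.7 CPM at 4 dpi, against 13, 5.14 and 7.84 CPM at 2 dpi (log2 fold change 2.53, SE 0.59, adjusted p = 0.026). eno1b did not pass in unablated RPE (log2 fold change 0.11, adjusted p = 0.92). None of 48 DNA replication genes and none of 46 mitosis genes was called, with medians of 0.33 and 0.20. By summed level, replication genes had 573.8, 726.2 and 512.4 CPM at 4 dpi, against 762.2, 647.2 and 625 CPM at 2 dpi. Mitosis genes had 1296, 1000 and 772.3 CPM at 4 dpi, against 1097, 2693 and 2524 CPM at 2 dpi, and both lists overlapped between the times. In unablated RPE 3 of 48 replication genes and 1 of 46 mitosis genes fell, against 2.76% of all tested genes, with medians of -0.91 and -0.87. The 1 mitosis call does not exceed that share. The mitosis median stood at -0.051 without ablated 4 dpi replicate 2 and at -0.15 without ablated 2 dpi replicate 3. DESeq2 called 1 replication gene lower and 0 mitosis genes, and 1 gene of each list had an unadjusted p under 0.05 in edgeR. Of the 57 lists examined 27 held no called gene, 26 held calls in 1 direction and 4 in both.

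Whether the change from 2 to 4 dpi differed between ablated and unablated RPE was tested as the change of the ablation effect. edgeR called 0 of 20093 genes (0%), limma-voom called 0 and DESeq2 called 26, while 919 genes (4.57%) had an unadjusted p under 0.05, of which 504 (2.51%) were positive and 415 (2.07%) negative. Ribosome biogenesis genes made up 27 of the negative ones, 27 of the 54 members, and 0 of the positive ones. With ablated and unablated libraries of the same time and number as pairs, which deviated from their group means together, 16 genes were called, 4 positive and 12 negative. The fit with pairs gave 2380 of all 20093 tested genes an unadjusted p under 0.05 in either direction, against 919 without pairs. With the pairs 42 of the 54 ribosome biogenesis genes had an unadjusted p under 0.05, all negative, 2 were called and the median was -1.51.

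ncl, which encodes nucleolin of the nucleolus (ENSDARG00000002710, chromosome 22, 36704303 to 36721742), had the smallest unadjusted p of the negative genes. It had 153, 198 and 199 CPM in ablated 4 dpi libraries, against 317, 333 and 399.8 CPM in ablated 2 dpi libraries (log2 fold change -0.93, SE 0.40, adjusted p = 0.22), and 331, 212 and 288 CPM in unablated 4 dpi libraries, against 70.2, 90.1 and 100 CPM in unablated 2 dpi libraries (log2 fold change 1.67, SE 0.41, adjusted p = 0.035). Its values thus lay lower at 4 dpi in ablated RPE and higher at 4 dpi in unablated RPE, without overlap in either. The difference of the 2 changes was -2.60 in both fits, with an adjusted p of 1 without and 0.042 with the pairs. cbx7a, a Polycomb chromobox gene, had 217, 171 and 338 CPM at 4 dpi, against 968, 342 and 530 CPM at 2 dpi in ablated RPE, while unablated RPE had 216, 141 and 295 CPM in unablated 4 dpi libraries, against 18.9, 14.9 and 27.5 CPM in unablated 2 dpi libraries. The difference was -4.75 without the pairs and -4.66 with them, where its adjusted p was 0.0026. cirh1a, a factor of the small-subunit processome, had 23.9, 35.6 and 41 CPM at 4 dpi, against 130.2, 34.7 and 43.7 CPM at 2 dpi in ablated RPE, overlapping between the times, and 21.3, 35.1 and 37.1 CPM in unablated 4 dpi libraries, against 11.1, 4.90 and 5.24 CPM in unablated 2 dpi libraries. ccdc135 and zbtb21 complete the 5 negative genes with the smallest p. Their differences were -6.19 and -2.77, and neither passed with the pairs in edgeR (adjusted p = 0.16 and 0.081). DESeq2 without pairs called ncl, cbx7a and ccdc135 (adjusted p = 0.0077, 0.037 and 0.037) but neither cirh1a nor zbtb21.

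Among genes whose change was more positive in ablated RPE, slc30a8, a zinc transporter, had 115, 99.2 and 79.8 CPM at 4 dpi, against 25.3, 42.7 and 55.3 CPM at 2 dpi in ablated RPE, while unablated RPE had 16.3, 30.5 and 9.41 CPM in unablated 4 dpi libraries, against 193, 59.7 and 91.3 CPM in unablated 2 dpi libraries. sh3bgr had 7.03, 6.11 and 8 CPM at 4 dpi, against 1.42, 1.77 and 2.88 CPM at 2 dpi, while unablated RPE had 5.51, 3.85 and 4.99 CPM in unablated 4 dpi libraries, against 11, 15.9 and 12 CPM in unablated 2 dpi libraries. tprg1, with a ratio of 252 with a 95% counting interval from 45 to 9959.9 in ablated RPE, was also among the 5 with the smallest p. So was the muscle creatine kinase gene ckma, and its value rested on unablated 2 dpi replicate 1, which held 76 CPM, while no other of the 12 libraries held more than 0.271 CPM. In edgeR none of the 5 passed with or without the pairs, whereas DESeq2 without pairs called slc30a8, tprg1 and sh3bgr (adjusted p = 0.0019, 0.0024 and 0.0024). Log2 differences of the 26 DESeq2 calls ran from -24.1 to 38.6, and no floor was granted there to groups with few counts.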

How the data were processed

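The authors deposited 1 table for each time, with 34326 genes and, per the file headers, total counts and TPM of paired reads for each library. The TPM were used for marker ranks, relative lengths and an alternative. GRCz10 is named in the submitters' processing notes. The aligner and the counter were not given in the sources used here. All columns matched a library, and 0 were left without a group. Labels put 3 libraries in each of 6 groups.

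Counts of the 3 tables were joined by identifier. filterByExpr kept 20093 of 29481 genes with a count, and libraries were scaled by TMM. The quasi-likelihood model of edgeR 4.0.16 in R 4.3.3, with robust dispersion, held 6 group means over 18 libraries (12 residual degrees of freedom, common biological coefficient of variation 79.9%). Contrasts were ablated 4 minus 2 dpi, unablated 4 minus 2 dpi and the difference of these, with Benjamini-Hochberg adjustment over all tested genes and a threshold of 0.05. The pipeline was tested on simulated data.

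Alternatives used RLE scaling, other filters, fewer libraries, DESeq2 1.42.0, limma 3.58.1 with voom or on log2(TPM + 1), replicate blocks, a term for dated names and each ablated library left out. For the difference of contrasts the block was the 9 pairs of ablated and unablated libraries of a time and number, whose deviations from group means correlated at 0.187 to 0.593.

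Named genes were the 15 largest rises and the 15 largest falls among called genes with separate libraries, a symbol other than a clone name and at least 5 CPM on average in the higher group (153 and 577 qualified), up to 4 called members of a list by adjusted p or, without a call, up to 2 by level, rpe65a, and 5 genes per direction for the difference of contrasts. Results of 2 genes that this rule or the calls would add are not reported here. Lists numbered 53 plus 4 added, covering 1896 tested genes for the 53, and 100 of their symbols had no match. The comparison, the members and the lists were chosen with earlier results of these data known, so no direction of a list is independent evidence. Where a group had no count the fold grants it 3 counts per library, and with 1 to 3 counts it carries a 95% interval from the binomial distribution (exact Clopper-Pearson). These cover counting error only. Figures were drawn with matplotlib 3.10.9.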

Additional observations from a re-analysis of the deposited data

Results flagged for a closer look

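With the pairs of ablated and unablated libraries as a block, 16 genes differed in their change from 2 to 4 dpi between ablated and unablated RPE by an interaction test in edgeR, and none of them did without the block (adjusted p = 1 for each). The values below are the difference of the 2 log2 changes with the block.

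Of the 12 negative genes 11 are given here, several of them of ribosome assembly. These were ncl at -2.60, rsl1d1 at -3.30, cirh1a at -3.04, nob1 at -2.31, pno1 at -2.08 and rrp1 at -1.92, known as nucleolar or pre-ribosomal factors in yeast or mammals, and twistnb, a subunit of RNA polymerase I, at -2.76. Of these twistnb was also called in ablated RPE alone, with 11.5, 13.5 and 11.5 CPM at 4 dpi, against 35.1, 121 and 113 CPM at 2 dpi (log2 fold change -2.89, SE 0.66, adjusted p = 0.024). The others were cbx7a at -4.66 and 3 genes with clone names, si:dkey-239h2.3 at -4.45, FP101887.1 at -2.83 and si:dkeyp-120h9.1 at -2.36. Adjusted p was 0.0026 for cbx7a and 0.0419 to 0.0497 for the other genes given.

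The 4 positive genes were calr, a calcium-binding chaperone of the endoplasmic reticulum, at 2.37, slc39a7, a zinc carrier of the same compartment, at 2.17, id1, an inhibitor of bHLH factors, at 3.43 and tpma, a muscle tropomyosin, at 12.35. calr averaged 144 CPM at 4 dpi and 110 CPM at 2 dpi in ablated RPE, where unablated RPE averaged 33.9 CPM at 4 dpi and 119 CPM at 2 dpi. tpma rested on unablated 2 dpi replicate 1, with 152 CPM where no other of the 12 libraries exceeded 1.44 CPM.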

How the results depend on the processing

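The count of 864 genes in ablated RPE stayed within 1.5 times under RLE scaling, other filters, fewer groups, voom, the term for dated names and the length trend removed. It was 2204 with DESeq2, 548 on log2(TPM + 1) with 73% of calls higher against 23.7%, and 2309 among dated libraries alone. Leaving out 1 ablated library gave 0 to 1343. The unablated count of 718 was 2204 with DESeq2, 1108 with the replicate block, 1210 with the term for dated names, 2341 among dated libraries, 230 with the length trend removed and 2 without unablated 4 dpi replicate 1. The difference between them, 0 calls, gave 26 with DESeq2, 2 with voom and the pairs, 1 on log2(TPM + 1), 16 with the replicate block and 35 with the block and the length trend removed. The cause of these shifts was not tested. Removing the length trend and leaving out the unablated library were chosen after seeing the data.

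Replicate numbers did not pair the ablated times. Correlations of same-numbered deviations were 0.0698, 0.115 and -0.0291, 2 of 3 libraries matched their own number best, and a replicate block gave 1103 calls. The mitochondrial share differed by -2.78 percentage points, from -4.59 to -1.75 with 1 library left out.

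Of 89 called genes named in the text none reversed under any setting. DESeq2 called all 89, the replicate block 88, the length-corrected fit 69 and TPM 54. Among genes that were not called, rpe65a ran from -0.16 to 0.59 and tyrp1b from -0.0081 to 1.13 with 1 library left out, and on log2(TPM + 1) zbtb21 stood at 0.074 and cirh1a at 0.023. Over 57 lists, 8 of the list medians under an alternative reversed, counted only where the main median exceeded the spread between replicates. On log2(TPM + 1) chaperones stood at 0.28, integrated stress response at 0.42 and cholesterol synthesis at 0.32, and cholesterol synthesis at 0.017 among dated libraries. Lymphocyte markers stood at -0.34 with only the 6 ablated libraries. With 1 library left out lymphocyte markers ran from -0.76 to 0.45, neutrophil markers from -0.010 to 1.18 and immediate early genes from -0.0025 to 0.72. The cause was not tested. These exclude the medians between single undated libraries, which turned sign for cytosolic ribosomal proteins (0.40) and the mitochondrial genome (0.54). Main medians within the spread between replicates are excluded too, and some of them turned sign. Without ablated 4 dpi replicate 2 visual cycle genes stood at -0.075 and glycolysis at -0.071, and without ablated 2 dpi replicate 3 mitosis stood at -0.15. Genes with 1 to 3 counts in a group have wide counting intervals, and 3 libraries a group limit small changes.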
